A study of Mus musculus with 6 samples.

Results

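Collagen genes of the interstitial matrix were followed in cultured fibroblasts from mammary fat pads of 2 inbred mouse strains. The group was chosen by name and holds 9 genes: Col1a1, Col1a2, Col3a1, Col5a1 and Col5a2, which encode chains of fibrillar collagens, Col6a1, Col6a2 and Col6a3, which encode the microfibrillar type VI collagen, and Col12a1, which encodes a collagen that sits on fibrils. All 9 are among the 12023 genes of the table, and all 9 were among the 8752 that passed the filter on low counts. The cells came from healthy BALB/c or C57BL/6 females, both without a genetic change or treatment in the labels, aged 8 to 12 weeks. The cells were enriched by magnetic separation, seeded on plates coated with rat-tail collagen type I and cultured for 4 days in both strains. Each strain gave 3 biological replicates, and RNA was counted per gene from libraries of 3′ ends of polyadenylated RNA. The series asks how the 2 strains differ at baseline.

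Fibrillar collagens are triple helices of 3 chains that assemble outside the cell into the fibrils that give connective tissue its tensile strength. Type I is the main fibril former, type III accompanies it in soft tissue, and type V helps to start fibrils and limits their width. Type VI forms beaded microfilaments around cells, and type XII links fibrils to their surroundings. Fibroblasts are the main source of these proteins in the mammary stroma. Procollagen chains are hydroxylated and folded in the endoplasmic reticulum, trimmed by proteases after secretion and crosslinked by lysyl oxidases.

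Positions are on GRCm38, the assembly that is also called mm10. Col1a1 is at chromosome 11, 94936224 to 94953042, Col1a2 at chromosome 6, 4504814 to 4541544, Col5a1 at chromosome 2, 27886425 to 28039514, and Col12a1 at chromosome 9, 79598991 to 79718831. Col3a1 (chromosome 1, 45311538 to 45349706) and Col5a2 (chromosome 1, 45374321 to 45503282) are neighbours on opposite strands, 24614 bp apart with 0 protein-coding genes between them, and Col6a3 lies on the same chromosome at 90765923 to 90843971. Col6a2 (chromosome 10, 76595762 to 76623630) and Col6a1 (chromosome 10, 76708792 to 76726168) are neighbours on the same strand, 85161 bp apart, also with 0 protein-coding genes between them. A search of the last 500 nt of each transcript found 0 other genes with a stretch of 60 nt or more at 95% identity or higher. Exons of Col3a1 overlap Gm47302 on the same strand, and exons of Col5a1 overlap 2810430I11Rik and Gm13372 on the opposite strand. No source used here gives the strand setting of the counting, so counts of these 2 chains are less certain than the others.

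The sequence before the start of 4 chains is shown because they make up 2 of the pairs whose levels went together most closely over the libraries, Col3a1 with Col6a3 and Col5a1 with Col6a2. Each line holds the 250 bases before a RefSeq transcript start on GRCm38.p6, 5′ to 3′ on the strand of the gene. Capitals mark 3 motifs, read on both strands: the CCAAT box as CCAAT, the core of the TATA box as TATAAA, and the core of the GC box as GGGCGG. The windows are chr1:45311288-45311537, plus strand, for Col3a1, chr1:90843972-90844221, minus strand, for Col6a3, chr2:27886175-27886424, plus strand, for Col5a1, and chr10:76623631-76623880, minus strand, for Col6a2.
Col3a1: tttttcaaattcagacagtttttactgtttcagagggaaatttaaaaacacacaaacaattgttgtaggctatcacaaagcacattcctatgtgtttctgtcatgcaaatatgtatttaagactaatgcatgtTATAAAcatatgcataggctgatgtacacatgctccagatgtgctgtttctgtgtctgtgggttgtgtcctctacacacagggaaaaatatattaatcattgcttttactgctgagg
Col6a3: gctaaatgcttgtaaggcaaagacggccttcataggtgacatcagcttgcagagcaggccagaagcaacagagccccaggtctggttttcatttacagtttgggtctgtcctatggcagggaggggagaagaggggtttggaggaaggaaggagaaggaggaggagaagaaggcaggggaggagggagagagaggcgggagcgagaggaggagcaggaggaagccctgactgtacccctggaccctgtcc
Col5a1: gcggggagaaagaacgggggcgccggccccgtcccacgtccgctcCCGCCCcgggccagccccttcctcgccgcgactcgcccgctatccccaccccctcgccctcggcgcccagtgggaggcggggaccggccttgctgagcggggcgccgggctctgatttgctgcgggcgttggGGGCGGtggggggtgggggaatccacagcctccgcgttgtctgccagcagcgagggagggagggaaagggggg
Col6a2: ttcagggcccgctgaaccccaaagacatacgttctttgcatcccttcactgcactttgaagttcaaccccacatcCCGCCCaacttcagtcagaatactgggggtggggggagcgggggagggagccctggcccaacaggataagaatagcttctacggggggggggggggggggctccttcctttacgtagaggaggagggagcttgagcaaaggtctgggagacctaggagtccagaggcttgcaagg

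The 2 pairs do not share a base composition. The Col3a1 window has 35.2% G and C and the Col6a3 window 57.2%, while those of Col5a1 and Col6a2 have 76.4% and 59.2%. The median over all promoter windows was 52.4%, where a gene can have several windows or none. Col3a1 has 1 TATAAA, first base at -117, Col5a1 has 2 GGGCGG on either strand, at -205 and -73, Col6a2 has 1, at -175, and Col6a3 has 0 of the 3 motifs. Of 32851 windows of this length, 33.8% hold CCAAT, 12.4% TATAAA and 32.7% GGGCGG on either strand. Of the 9 chains, 6 had an entry in the promoter table. The windows of Col1a2 and Col6a1 and a further one of Col6a2 reach into annotated exons and are not printed. A match to these letters is a description of the sequence and does not show that a factor binds there.

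The libraries behind these values were uneven. Total counts ran from 1035485 to 2713611 in BALB/c and from 1295349 to 4665896 in C57BL/6. C57BL/6 replicate 1 stood apart, with a mean correlation across genes of 0.779 with the other 5 libraries against 0.870 to 0.910 for those. Some results are therefore also given without it. Fibroblast markers made up 0.365% to 0.604% of counts in BALB/c and 0.163% to 0.541% in C57BL/6, and all 8 listed markers were in the table, with Fap at 0 in 1 library. Of 12 mammary epithelial markers 11 were present, 0 of these 11 at 0 in any library, with 0.205% to 1.22% of counts in BALB/c and 0.319% to 1.63% in C57BL/6. Macrophage and leukocyte markers held 0.0588% to 0.143% over the 6 libraries, with Ptprc and Adgre1 at 0 in some, and pericyte and smooth muscle markers 0.287% to 0.372% in BALB/c and 0.412% to 0.553% in C57BL/6. Endothelial and adipocyte markers each stayed under 0.01% of counts, and Adipoq, Plin1 and Cidec, which define adipocytes, have no row.

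None of the collagen chains differed between the strains past the threshold. What differed was the library: within each strain 1 culture had several times the collagen RNA of another. Together the 9 chains took 0.594%, 0.126% and 0.344% of counts in BALB/c and 0.0846%, 0.700% and 0.240% in C57BL/6, by replicate number. The highest and the lowest of these 6 shares are both from C57BL/6. Col1a2 alone supplied 60.1% to 74.8% of the collagen counts in each library. In bulk RNA, fewer fibroblasts in a culture and less collagen RNA per fibroblast cannot be told apart.

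**Figure D1:**
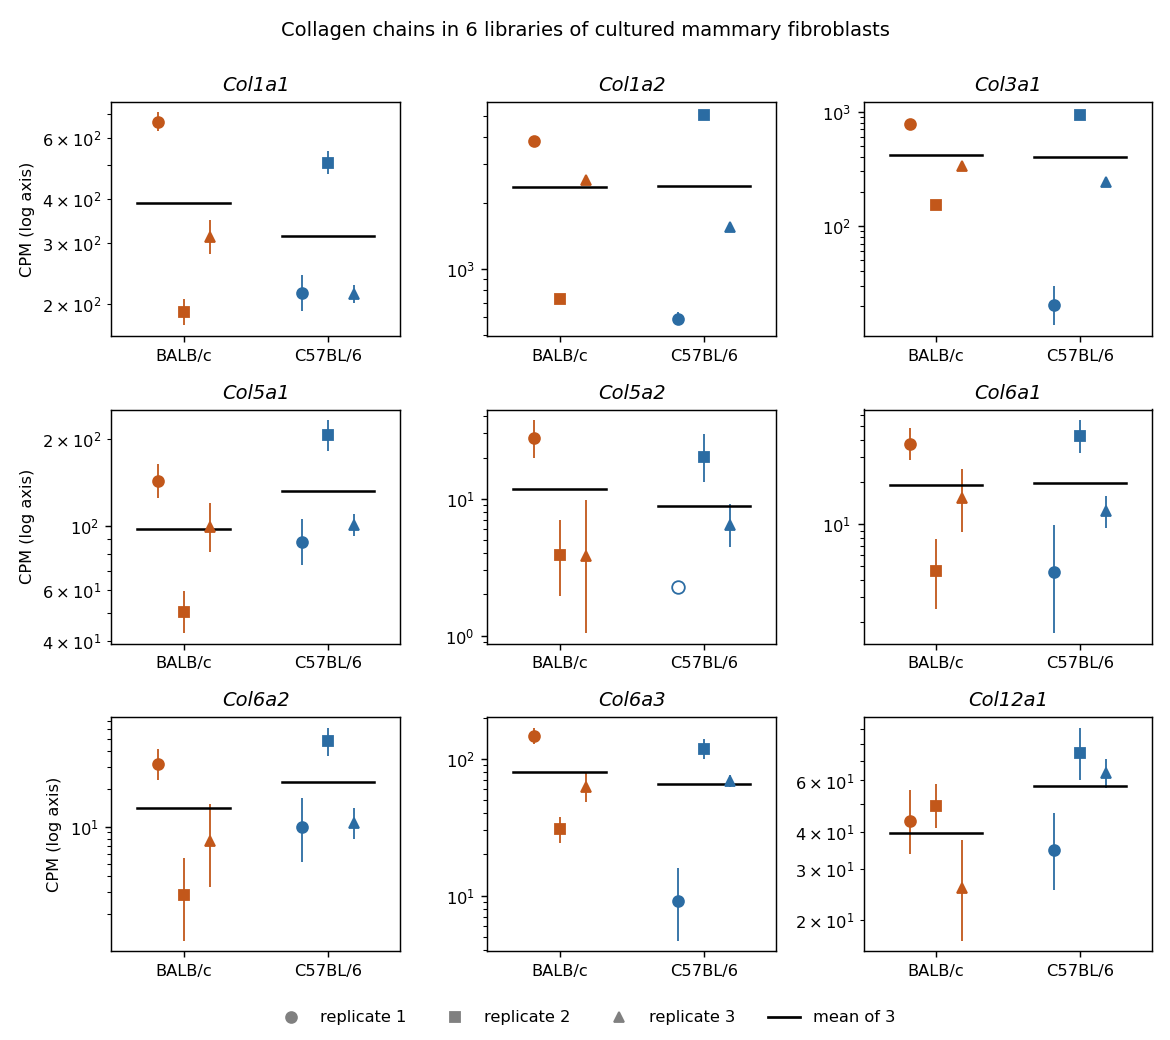
Level of each of the 9 chains in CPM (counts per 1000000 counts of the scaled library total, log axis, scale differs between panels) in 3 BALB/c and 3 C57BL/6 libraries, with 95% counting intervals and the mean of each strain as a black line. BALB/c replicate 1 and C57BL/6 replicate 2 are the 2 highest libraries in all panels except Col12a1, and the open circle for Col5a2 is a count of 0 drawn at the level of 3 counts, 2.27 CPM.

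Levels are given as CPM, counts per 1000000 counts of the scaled library total. A 3′ count is taken near the end of a transcript, so transcript length enters it little. Col1a2, which encodes the α2 chain of type I collagen, was at 3844, 728 and 2557 CPM in BALB/c replicates 1, 2 and 3 and at 592, 5064 and 1546 CPM in C57BL/6 replicates 1, 2 and 3. The strains overlapped completely, since the C57BL/6 libraries lay both above and below all BALB/c libraries. The mean CPM was 2376 ± 1566 for BALB/c and 2400.3 ± 2355 for C57BL/6 (SD, n = 3 each). The log2 difference, BALB/c minus C57BL/6, was -0.01 ± 0.83 (SE), with an adjusted p of 0.998 in edgeR's quasi-likelihood test.

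Col1a1, which encodes the α1 chain of the same collagen, was at 665, 190 and 312 CPM in BALB/c replicates 1, 2 and 3 and at 216, 508 and 214 CPM in C57BL/6 replicates 1, 2 and 3. Again BALB/c replicate 1 and C57BL/6 replicate 2 were the highest, and the 2 low C57BL/6 libraries were within 2 CPM of each other. The log2 difference was 0.32 ± 0.54 (edgeR adjusted p = 0.954).

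Col3a1, the single chain of type III collagen, was at 780, 151 and 334 CPM in BALB/c replicates 1, 2 and 3 and at 20.4, 932 and 245 CPM in C57BL/6 replicates 1, 2 and 3. C57BL/6 replicate 1 had 27 counts of Col3a1 where C57BL/6 replicate 2, with a smaller total, had 1204, and the highest C57BL/6 library exceeded the lowest 45.6-fold. In BALB/c this ratio was 5.15. The log2 difference of Col3a1 was 0.08 ± 1.12 (edgeR adjusted p = 0.996), and -0.49 without C57BL/6 replicate 1.

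Type V collagen is a minor partner of type I within the same fibrils. Col5a1 was at 144, 50.7 and 99.7 CPM in BALB/c replicates 1, 2 and 3 and at 88.5, 207 and 101 CPM in C57BL/6 replicates 1, 2 and 3. Col5a2 was the least counted chain, with 115 counts in all: 42, 11 and 4 in the BALB/c libraries and 0, 26 and 32 in the C57BL/6 libraries, by replicate number. The floor used for the count of 0 is 3 counts, or 2.27 CPM, and its 95% counting interval reaches 2.79 CPM. On the CPM scale Col5a2 was at 27.7, 3.90 and 3.83 in BALB/c and at 20.1 and 6.47 in C57BL/6 replicates 2 and 3. Both chains were highest in the same 2 libraries, 1 of each strain, and the strains overlapped in both. The log2 difference was -0.43 ± 0.48 for Col5a1 (edgeR adjusted p = 0.954) and 0.44 ± 1.22 for Col5a2 (edgeR adjusted p = 0.966).

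In the 3 chains of type VI collagen BALB/c replicate 1 and C57BL/6 replicate 2 were again the 2 highest libraries, and the order of the other 4 differed between the chains. Col6a3, the largest of the 3 chains, was at 148, 30.5 and 62.3 CPM in BALB/c replicates 1, 2 and 3 and at 9.08, 118 and 69.1 CPM in C57BL/6 replicates 1, 2 and 3. Col6a1 was at 37.6, 4.61 and 15.3 CPM in BALB/c and at 4.54, 42.6 and 12.3 CPM in C57BL/6, in the same order of replicates. Col6a2 was at 31.7, 2.84 and 7.67 CPM in BALB/c and at 9.83, 48.0 and 10.7 CPM in C57BL/6. These are low counts: Col6a2 had 8 counts in each of BALB/c replicates 2 and 3, and Col6a1 had 6 in C57BL/6 replicate 1, where the 95% counting interval runs from 1.67 to 9.88 CPM. The log2 difference was 0.29 ± 0.86 for Col6a3, -0.04 ± 0.94 for Col6a1 and -0.69 ± 0.98 for Col6a2, with edgeR adjusted p of 0.967, 0.997 and 0.954.

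Col12a1, a fibril-associated collagen of large chains, was at 43.6, 49.3 and 25.9 CPM in BALB/c replicates 1, 2 and 3 and at 34.8, 74.3 and 63.4 CPM in C57BL/6 replicates 1, 2 and 3. BALB/c replicate 2, the lowest BALB/c library for 7 of the 9 chains, was the highest BALB/c library for Col12a1. The range within a strain was 1.90-fold in BALB/c and 2.14-fold in C57BL/6, where the other chains ranged from 2.84-fold to 11.2-fold in BALB/c. In C57BL/6 the range of Col12a1 was close to those of Col5a1, 2.33-fold, and Col1a1, 2.37-fold, and the other chains with a count in every library reached 4.88-fold to 45.6-fold. The log2 difference was -0.53 ± 0.39 (edgeR adjusted p = 0.954).

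**Figure D2:**
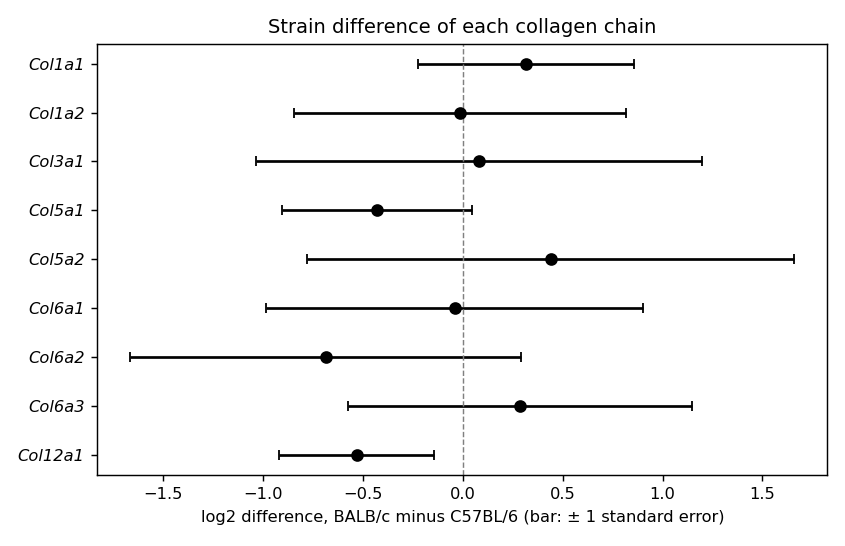
Log2 difference between the strains for each chain from edgeR's quasi-likelihood fit, BALB/c minus C57BL/6, with 1 standard error on either side. All 9 estimates lie between -0.69 and 0.44, and no chain passed the threshold.

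Of the 9 chains 0 passed an adjusted p of 0.05 in edgeR, where 18 of all 8752 tested genes did, or 0.206%. That number of genes was 25 without C57BL/6 replicate 1, 4 without BALB/c replicate 1, 5 without C57BL/6 replicate 2, and 0 without any one of BALB/c replicates 2 and 3 and C57BL/6 replicate 3. At an unadjusted p under 0.05 the count was also 0, and the share of all tested genes at that cut is not given here. DESeq2, limma-voom and limma-voom with quality weights called 0 of the 9. Of all 8752 tested genes they called 71, 3 and 57. The estimates were higher in BALB/c for 4 chains and lower for 5, with a median of -0.01, and 0.01 for all tested genes. This even split depended on C57BL/6 replicate 1. Without that library the estimate was 0.10 for Col1a1 and lower in BALB/c for every other chain, from -0.10 for Col5a2 to -1.03 for Col6a2. Again 0 chains passed the threshold. In 0 of the 9 chains were the strains without overlap, against 995 tested genes, or 11.4%. Standard errors ran from 0.39 to 1.22 on the log2 scale. For 7 of the chains 2 standard errors exceed a difference of 1, or 2-fold. For the others, Col5a1 and Col12a1, a 2-fold lower level in BALB/c lies within 2 standard errors of the estimates, -0.43 and -0.53. These data therefore do not show that the strains have equal levels. The p-values measure the spread between these 3 and 3 cultures. Leaving out a single library changed the sign of the estimate in 8 of the 9 chains, and Col12a1 was the exception.

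The spread lay within the strains. Differences between the strain means held a median of 5.44% of the variance of log2 CPM for the 9 chains, from 0.0386% for Col6a1 to 26.1% for Col12a1, where the median of all tested genes was 15.2%. The SD of log2 CPM over the 6 libraries had a median of 1.30 for the chains and 0.49 for all tested genes. Col3a1 had an SD of 1.98, larger than that of 99.1% of tested genes, and Col12a1 one of 0.55, larger than that of 56.6%. BALB/c replicate 1 and C57BL/6 replicate 2 were the 2 highest of the 6 libraries in 8 of the 9 chains, against 15.96% of tested genes. Both libraries were at least 2-fold above each of the other 4 in 4 of the 9 chains, against 64 of 8752 tested genes, or 0.731%. C57BL/6 replicate 1 was the lowest of its strain in 8 of 9 chains, against 45.7% of tested genes. These libraries were named with the levels of the chains known, so the comparisons with all tested genes are descriptions and not tests.

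The levels of most chains varied together from culture to culture. Pearson correlations of log2 CPM over the 6 libraries had a median of 0.81 over the 36 pairs of chains, where pairs of a chain and any other tested gene had a median of 0.07. Among the 28 pairs without Col12a1 they ran from 0.59 to 0.98, and in the 8 pairs with Col12a1 from 0.14 to 0.52. Some tested genes had an r at least as high with the first chain of a pair. Over the 28 pairs their share ran from 0.0571% for Col1a2 with Col6a1 to 35.6% for Col3a1 with Col6a2. Among the 9 pairs that passed by Pearson's r, given below, the highest share was 13.8%, for Col3a1 with Col6a1. Each point is a library, so all pairs share the same cultures, depths and scaling. With an exact permutation test of the 720 pairings, two-sided and Benjamini-Hochberg adjusted over the 36 pairs, 9 pairs had an adjusted p under 0.05 by Pearson's r and 3 by Spearman's rho, and 0 of the pairs with Col12a1 did by either. Whether Col12a1 differs from the other chains in this respect was not tested. Each strain has 3 libraries, too few for a correlation within it. With deviations from the strain means in place of levels the median was 0.87, and it was 0.92 over the 5 libraries without C57BL/6 replicate 1. With such deviations the pairs of Col12a1 ran from 0.21 to 0.75, the highest being with Col5a2 (0.75), Col3a1 (0.65) and Col6a3 (0.61).

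**Figure D3:**
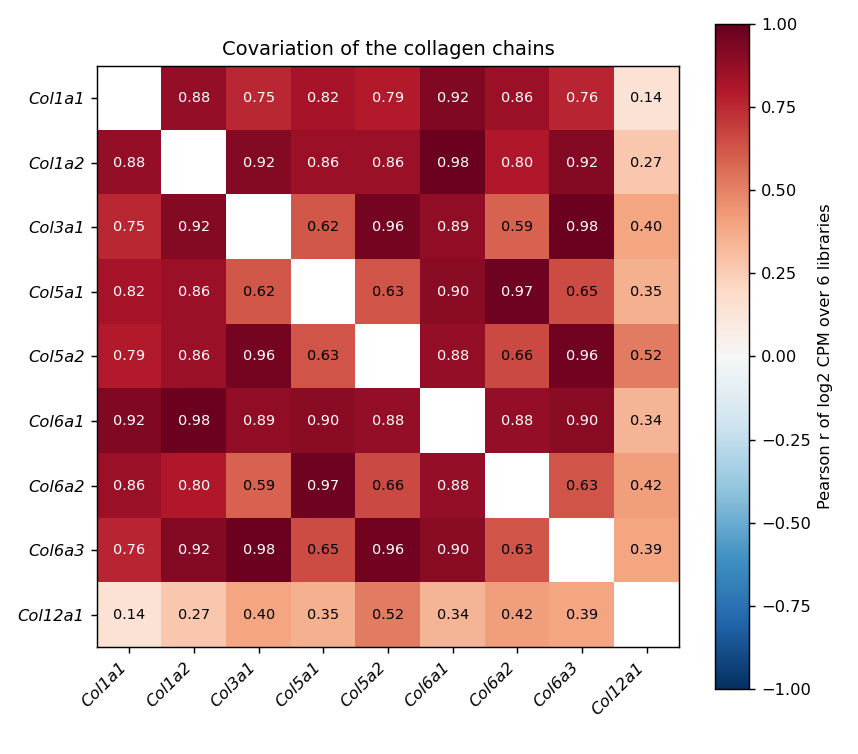
Pearson r of log2 CPM over the 6 libraries for each pair of the 9 chains. Values in the 8 pairs with Col12a1, the last row and column, are 0.14 to 0.52, and those in the other 28 pairs 0.59 to 0.98.

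The closest pair was Col1a2 and Col6a1, with r = 0.98 (exact permutation p = 0.00417, adjusted p = 0.0357) and rho = 1 (exact permutation p = 0.00278, adjusted p = 0.0333). Without the 2 libraries farthest from the median of Col1a2 the r was 0.95. The rho of 1 depends on the order of 2 libraries with nearly equal Col6a1. These are BALB/c replicate 2, at 4.61 CPM (95% counting interval 2.45 to 7.88), and C57BL/6 replicate 1, at 4.54 CPM (1.67 to 9.88). The rho of Col3a1 with Col6a1, also 1 and among the 3 pairs that passed by rho, depends on the same order. Col3a1 and Col6a3, a fibrillar and a microfibrillar chain, had r = 0.98 (exact permutation p = 0.00556, adjusted p = 0.0357) and rho = 0.89 (exact permutation p = 0.0333, adjusted p = 0.10), and 0.96 without the 2 farthest libraries. Col5a1 and Col6a2 had r = 0.97 (exact permutation p = 0.00417, adjusted p = 0.0357) and rho = 0.94 (exact permutation p = 0.0167, adjusted p = 0.10), and 0.93 without the 2 farthest libraries. The 2 chains of 1 trimer were not always the closest pair. Col1a1 and Col1a2 had r = 0.88 (exact permutation p = 0.0306, adjusted p = 0.0765), rho = 0.77 (exact permutation p = 0.103, adjusted p = 0.176), and 0.81 without the 2 farthest libraries. Col5a1 and Col5a2 had r = 0.63 (exact permutation p = 0.168, adjusted p = 0.252), rho = 0.77 (exact permutation p = 0.103, adjusted p = 0.176), and 0.92 without the 2 farthest libraries.

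Much of the contrast between pairs lay in C57BL/6 replicate 1. There Col3a1, Col5a2 and Col6a3 deviated from their mean log2 CPM over the libraries by -3.50, -2.87 and -2.43, while Col5a1, Col6a2 and Col1a1 deviated by -0.25, -0.34 and -0.53. Without this library Col3a1 and Col6a2 had r = 0.97 over 5 libraries, where with it they had 0.59 (exact permutation p = 0.229, adjusted p = 0.295), with a rho of 0.71 (exact permutation p = 0.136, adjusted p = 0.181). Deviations of this library went with the base composition of the 3′ end across genes, with r = 0.67 between its deviation and the G and C content of the last 500 nt over 8649 genes, a description, as genes are not independent replicates. In the other 5 libraries this r was -0.43 to -0.19. The 3′ ends of Col3a1 and Col5a2 have 31.4% and 36.8% G and C, but Col6a3 has 49.8%, Col5a1 34.2% and Col6a2 50.8%, against a median of 45.6%. The part of base composition in the levels of the chains was not tested.

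Ratios between chains are free of the library's scaling. They compare 3′ counts of different genes, so each fold is a ratio of counts and may differ from the ratio of transcripts. Col1a2 exceeded Col1a1 in all 6 libraries, by 5.78-fold, 3.83-fold and 8.18-fold in BALB/c replicates 1, 2 and 3 and by 2.74-fold, 9.96-fold and 7.22-fold in C57BL/6 replicates 1, 2 and 3. As background, the type I trimer holds more α1 than α2 chains. Its mean log2 value was 2.50 ± 0.55 in BALB/c and 2.54 ± 0.97 in C57BL/6 (SD, n = 3 each), and the difference of -0.04 had an exact two-sided permutation p of 1. With 3 libraries against 3 this test cannot go below 0.10.

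Col3a1 was close to Col1a1 in 5 libraries, at 0.797-fold to 1.83-fold, and at 0.0947-fold in C57BL/6 replicate 1. The mean log2 ratio was 0.00 ± 0.29 in BALB/c and -0.78 ± 2.30 in C57BL/6 (SD, n = 3 each), with an exact permutation p of 0.90, and the difference turned from 0.78 to -0.53 without C57BL/6 replicate 1. Col5a1 exceeded Col5a2 by 5.19-fold, 13.0-fold and 26.0-fold in BALB/c replicates 1, 2 and 3 and by 10.3-fold and 15.6-fold in C57BL/6 replicates 2 and 3. In C57BL/6 replicate 1 the value was 39.0-fold with a floor of 3 counts in place of the 0 counts of Col5a2.

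The ratio of Col6a1 to Col6a2 was the one of the 4 tested ratios in which the strains did not overlap. By replicate number, BALB/c libraries had 1.19, 1.63 and 2.00 and C57BL/6 libraries 0.462, 0.887 and 1.15. The nearest libraries, BALB/c replicate 1 and C57BL/6 replicate 3, differed by 1.19 against 1.15. On the log2 scale the means were 0.65 ± 0.38 and -0.36 ± 0.68 (SD, n = 3 each), with a difference of 1.01 and an exact permutation p of 0.10, the smallest this design allows, and 0.40 adjusted over the 4 ratios. The difference was 0.63 without C57BL/6 replicate 1. Col6a3 to Col6a2 was 4.67, 10.8 and 8.13 in BALB/c and 0.923, 2.47 and 6.45 in C57BL/6, in the order of replicates. Its log2 difference of 1.60 had an exact permutation p of 0.20, adjusted 0.40, and Col6a2 is the denominator of both ratios. The difference of Col6a3 to Col6a2 was 0.89 without C57BL/6 replicate 1 and 2.30 without C57BL/6 replicate 3.

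**Figure D4:**
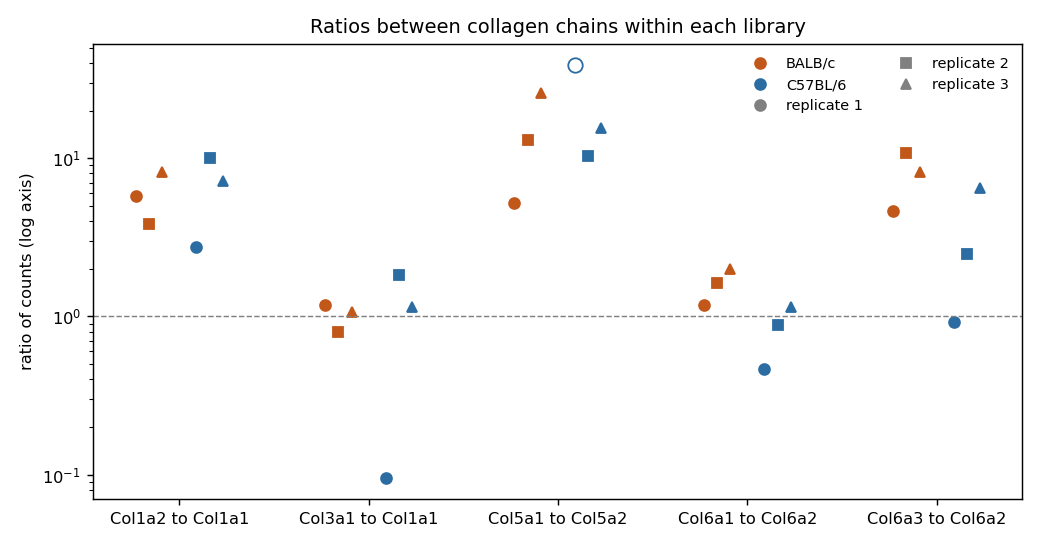
Ratio of the counts of 2 chains in each library (log axis, dashed line at 1), 3 BALB/c and 3 C57BL/6 libraries per ratio. Col1a2 lies above Col1a1 in all 6 libraries. The open circle for Col5a1 to Col5a2 is the value of 39.0 for C57BL/6 replicate 1, with a floor of 3 counts in place of its 0 counts of Col5a2.

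The collagen share of a library stood opposite to its share of epithelial counts. BALB/c replicate 1 and C57BL/6 replicate 2, highest in the chains, had 0.205% and 0.319% of counts in mammary epithelial markers, and C57BL/6 replicate 1 and BALB/c replicate 2, lowest in the chains, had 1.63% and 1.22%. In between, BALB/c replicate 3 had 0.921% and C57BL/6 replicate 3 had 1.09%. Krt8, a keratin of luminal epithelium, was at 362, 2244 and 1789 CPM in BALB/c replicates 1, 2 and 3 and at 3499, 729 and 1880 CPM in C57BL/6 replicates 1, 2 and 3. Its partner Krt18 was lowest in the same 2 libraries, at 353 and 715 CPM. Of 7 tested fibroblast markers 3 had an r of at least 0.8 with the mean of the chains over the libraries, and 1 had an r of -0.8 or lower. The values were 0.83 for Pdgfra, 0.82 for Vim, 0.80 for Thy1, 0.79 for Fbn1, 0.24 for Pdpn, 0.16 for Pdgfrb and -0.87 for S100a4. Vim, the mesenchymal intermediate filament, was at 4305, 2598 and 3643 CPM in BALB/c and at 793, 3820 and 2715 CPM in C57BL/6, and Thy1, a surface glycoprotein of fibroblasts, at 595, 152 and 342 CPM and at 321, 701 and 293 CPM. The shares of the fibroblast markers varied 3.70-fold over the libraries, while those of the chains varied 8.27-fold. The part of epithelial content in the collagen levels was not tested.

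**Figure D5:**
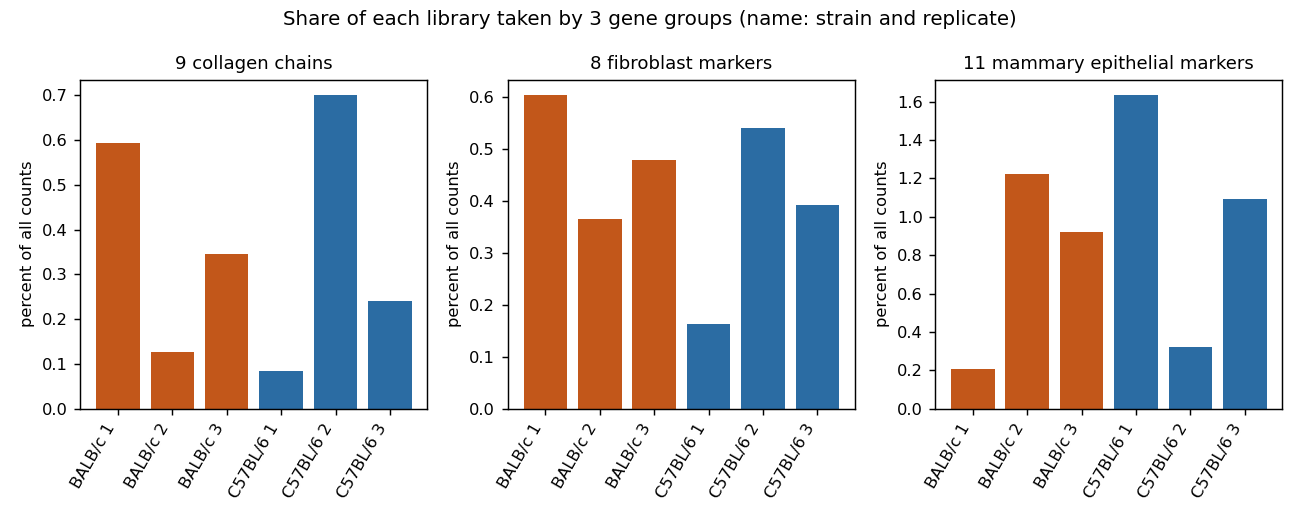
Percent of all counts in the 9 collagen chains, the 8 fibroblast markers and the 11 mammary epithelial markers in each library, with BALB/c in orange and C57BL/6 in blue. The chains are highest in BALB/c replicate 1 and C57BL/6 replicate 2, at 0.594% and 0.700%, where the epithelial markers are lowest, at 0.205% and 0.319%.

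Other genes of the collagen pathway were read from the same fit, and 0 of the 55 tested passed the threshold. Of all 8752 tested genes 18 did, or 0.206%, so a count of 0 is near that share. Of 35 further collagen chains 17 were in the table and 10 were tested, with 2 estimates higher and 8 lower in BALB/c and a median log2 difference of -0.27. Col4a1 and Col4a2, the common basement membrane chains, were the most abundant of these. The mean CPM of Col4a1 was 442 ± 108 for BALB/c and 943 ± 277 for C57BL/6 (SD, n = 3 each), a log2 difference of -1.09 ± 0.32 (edgeR adjusted p = 0.882), and Col4a2 had -0.82 ± 0.31 (edgeR adjusted p = 0.954). Neither chain overlapped between the strains in CPM, as was so for 11.4% of all tested genes. Col4a1 did not share the pattern of the interstitial chains over the libraries: its log2 CPM had r = 0.05 with the mean of the 9 chains. C57BL/6 replicate 1, lowest in most of those, was highest in Col4a1 at 1155 CPM. Its partner Col4a2 had r = 0.47 and was highest in C57BL/6 replicate 2, at 960 CPM.

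Of 20 tested genes of procollagen synthesis and secretion 6 estimates were higher and 14 lower in BALB/c, with a median of -0.20. Serpinh1, the collagen chaperone HSP47, had a mean CPM of 1955 ± 513 for BALB/c and 2303 ± 453 for C57BL/6 (SD, n = 3 each), and its log2 difference was -0.24 ± 0.28 (edgeR adjusted p = 0.954). P4hb, a subunit of prolyl 4-hydroxylase, had -0.40 ± 0.24 (edgeR adjusted p = 0.954). Colgalt1, which adds galactose to hydroxylysine of collagens, had the lowest adjusted p of the pathway lists and was chosen for mention once its values were known. It was at 197, 190 and 204 CPM in BALB/c replicates 1, 2 and 3 and at 642, 423 and 440 CPM in C57BL/6 replicates 1, 2 and 3, with no overlap. Its log2 difference of -1.35 ± 0.25 did not pass in edgeR (adjusted p = 0.198) and passed under DESeq2 (adjusted p = 4.79e-04) and under limma-voom with quality weights (adjusted p = 0.00967). Adjusted p over its 16 alternatives ran from 4.79e-04 to 0.997.

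Of 9 tested genes of trimming and crosslinking 3 estimates were higher and 6 lower in BALB/c, with a median of -0.14. Bmp1, the procollagen C-proteinase, differed by -0.37 ± 0.26 on the log2 scale (edgeR adjusted p = 0.954), and Pcolce, which enhances that cleavage, 0.05 ± 0.35 (edgeR adjusted p = 0.986). Of 8 fibril-binding matrix proteins 6 were higher and 2 lower, with a median of 0.09. Sparc, a collagen-binding matricellular protein, had 0.10 ± 0.53 and Bgn, the proteoglycan biglycan, 0.00 ± 0.34, with edgeR adjusted p of 0.979 and 0.999. Of 8 collagen receptors and uptake genes 2 were higher and 6 lower, with a median of -0.28. Itgb1, the β1 chain of collagen-binding integrins, had -0.39 ± 0.30 and Mrc2, an endocytic collagen receptor, -0.34 ± 0.54, with edgeR adjusted p of 0.954 for both.

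Over the libraries, genes of the machinery ranged from those that went closely with the chains to those that did not. The likeness measure was Pearson's r between a gene's log2 CPM and the mean centred log2 CPM of the 9 chains over the 6 libraries, given as a description with no test. An r of at least 0.8 was reached by 5 of 9 genes of trimming and crosslinking, 4 of 8 fibril-binding proteins, 8 of 20 genes of synthesis and secretion, 3 of 10 other collagens and 2 of 8 receptors, against 10.4% of all tested genes outside the 9. Lox, a lysyl oxidase, had r = 0.94, Thbs2, a thrombospondin, 0.95, P3h3, a prolyl 3-hydroxylase family member, 0.96, and Antxr1, a collagen-binding surface protein, 0.97. Serpinh1 had r = 0.35, P4hb -0.13, Bmp1 -0.70 and Itgb1 -0.78. Serpinh1 was at 2601 CPM in C57BL/6 replicate 1, its highest library, where 8 of the 9 chains were at the lowest level of the strain. Of the 11 epithelial markers 8 had an r of -0.8 or lower, against 12.5% of all tested genes outside the 9. These values share the 6 libraries with the chains.

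The genes most like the chain mean, among 4424 genes whose mean log2 CPM was 5 or higher, included Slc7a1, Vegfa, Noa1, Xrcc6, Leo1, Scpep1, Dhrs7, Sparc and Sec31a, with r from 0.98 to 1.00 over 6 libraries. Sparc was the one matrix gene among those named, at 5207, 2283 and 3632 CPM in BALB/c replicates 1, 2 and 3 and at 1477, 6064 and 2813 CPM in C57BL/6 replicates 1, 2 and 3. Slc7a1, a transporter of cationic amino acids, was at 141, 57.1 and 76.7 CPM in BALB/c and at 38.6, 151 and 75.2 CPM in C57BL/6. Vegfa, the vascular endothelial growth factor, was at 427, 195 and 296 CPM in BALB/c and at 148, 515 and 292 CPM in C57BL/6, and Sec31a, a coat protein of vesicles that leave the endoplasmic reticulum, ranged from 213 to 366 CPM. A high r does not require a wide range: Noa1 ran from 39.3 to 46.4 CPM over the 6 libraries, with a lowest count of 44. Its r of 0.99 was 0.963 with DESeq2 size factors and 0.886 with library totals alone, so its likeness depends on the scaling.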

How the data were processed

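RNA from cultured mammary fat pad fibroblasts of 3 BALB/c and 3 C57BL/6 females was measured as 3′ end libraries. The deposited values are whole-number counts per gene, which the authors did not normalize. The tools named, per the submitters' processing notes, are HTSeq, bcl2fastq and STAR 2.4.2a, with the build mm10. No source used here gives the handling of strand or of duplicate molecules.

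Libraries were scaled with TMM, genes were filtered with filterByExpr, and the strains were compared with edgeR 4.0.16 (robust quasi-likelihood test, Benjamini-Hochberg adjustment over 8752 genes, threshold 0.05) in R 4.3.3. CPM are counts per 1000000 counts of the scaled total, and log2 CPM have a prior count of 2. Ratios and correlations were tested by exact two-sided permutation (scipy 1.17.1). Poisson intervals (exact, 95%) and the floor of 3 counts reflect counting error alone. Positions came from GENCODE vM21, near-identical copies from BLAST+ 2.17.0, and promoter sequences from RefSeq on GRCm38.p6.

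Alternatives were other scalings and filters, DESeq2 1.42.0, limma 3.58.1 (voom, with and without quality weights), a replicate block and leaving out each library. The strain fit was tested on simulated data. Named genes were the 9 chains, the 2 tested members of highest mean log2 CPM from each list with none past the threshold, and the 10 genes most like the chain mean among those whose mean log2 CPM was 5 or higher, of which 1 is not reported here. For marker lists other than the fibroblast and epithelial ones only the share of counts is given. The r with the chain mean is given for all 7 tested fibroblast markers. Colgalt1, Lox, Thbs2, P3h3 and Antxr1 were chosen after their values were seen. Members and lists were chosen with earlier results of these data known.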

Additional observations from a re-analysis of the deposited data

How the results depend on the processing

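The number of collagen chains past the threshold stayed at 0 in all 16 alternatives of the strain fit. The number of all genes past it, 18 as reported, was 11 with library totals alone (5 higher and 6 lower in BALB/c), 71 with DESeq2 (25 and 46), 3 with limma-voom (1 and 2), 57 with quality weights (25 and 32) and 0 with a replicate block, and it ran from 0 to 25 when 1 library was left out. The labels do not say whether replicate numbers pair the samples. Deviations of same-numbered libraries had r = -0.42, -0.40 and -0.08, and those of differently numbered libraries -0.33 to 0.58. These values cannot decide whether the numbers share a preparation, and the block result is given here only.

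Of 141 values of a chain under an alternative 25 had the other sign, and 8 of 9 chains changed sign in some alternative. Col12a1 kept its sign. The log2 difference of Col1a2 was 0.0239 with library totals, 0.0233 with upper quartile scaling, 0.19 with limma-voom, 0.0812 with quality weights and 0.35 with the replicate block. That of Col6a1 was 0.00548 with library totals, 8.33e-04 with upper quartile scaling and 0.0605 with the replicate block. With quality weights Col5a2 was at -0.17 and Col6a3 at -0.27. Bgn was at -0.0132 with DESeq2 size factors, -0.00912 without a filter on low counts, -0.0132 with DESeq2's test and -0.00106 with the replicate block. The cause was not tested.

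With 1 library left out the log2 difference ran from -0.32 to 0.86 for Col1a1, -0.55 to 1.15 for Col1a2, -0.72 to 1.63 for Col3a1, -0.83 to 0.0509 for Col5a1, -1.16 to 1.59 for Col5a2, -1.05 to 1.08 for Col6a1, -2.20 to 0.43 for Col6a2, -0.52 to 0.97 for Col6a3, -0.78 to -0.31 for Col12a1, -0.27 to 0.30 for Pcolce, -0.27 to 0.79 for Sparc, -0.30 to 0.22 for Bgn and -0.92 to 0.15 for Mrc2. The median r of the 36 pairs of chains, 0.81 as reported, was 0.87 with deviations from the strain mean and ran from 0.75 to 0.92 with 1 library left out. The 4 tested ratios moved by less than their spread over the libraries under their alternatives, although with 1 library left out the strain difference of Col1a2 to Col1a1 ran from -0.58 to 0.35 and that of Col3a1 to Col1a1 from -0.53 to 1.60. Depth limits Col5a2, Col6a1 and Col6a2 most, with 115, 208 and 192 counts over all libraries.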
